A study of Homo sapiens with 12 samples.

Results

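MYC and 31 genes of nucleolar ribosome assembly were followed in single-cell RNA-seq of Nalm-6 cells, which were grown out of a human acute lymphoblastic leukemia of B-cell precursors. The 32 genes were chosen by symbol, out of 57905 genes counted in the libraries and with earlier results of these data known. They are MYC itself and genes whose proteins make, modify, fold or package ribosomal RNA in the nucleolus. Of these 32 genes, 31 reached 10 unique molecular identifiers (UMIs) per 1000000 human UMIs (CPM) in at least 1 library, as did 7980 genes in all. BOP1 did not.

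Cells with induced RUNX1, a DNA-binding transcription factor of blood cell formation, were set beside a control, with 1 library per group made with the 10x Genomics 3′ assay. The library labelled RUNX1 came from Nalm-6 cells that carried a TetOn regulator and a lentiviral RUNX1 cDNA, with 500 ng/ml doxycycline and the label 72 h. The control library, also labelled 72 h, is given the empty vector as its genotype, while DMSO, a solvent, stands in its title and no doxycycline is listed for it. The vector, the inducer and the culture therefore cannot be told apart from the RUNX1 label. With 1 library per group no difference could be tested between conditions, and every interval below is a 95% interval for counting error only.

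MYC is a transcription factor that binds DNA with its partner MAX at the sequence CACGTG, called an E-box, and genes for ribosome production are among its best known targets. In the nucleolus, RNA polymerase I copies the ribosomal DNA into a long precursor, box C/D and box H/ACA small nucleolar ribonucleoproteins (snoRNPs) methylate and pseudouridylate it, and assembly factors fold and cut it into the RNAs of the small and the large ribosomal subunit. Proliferating B-cell precursors and leukemia cells depend on this pathway, and it is reduced when lymphocytes rest.

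The E-box was common at the starts of these genes. They were picked together with MYC, whose known targets include genes for ribosome production. How far that choice gives the share was not tested, and no share was taken for other ribosome assembly genes. A RefSeq table of promoter windows, from 250 bases before to 50 bases after a gene start (GRCh38.p14), held 25 of the 32 genes. CACGTG, which reads the same on both strands, occurred in 15 of these 25 genes (60%). It occurred in 8.77% of all 27305 genes with a window and in 13.9% of the 6090 of them that reached 10 CPM here. Counted by window, the share was 7.26% of 35116. In all 15 genes an E-box began within 50 bases of a RefSeq start, which held for 6.06% of the genes at 10 CPM. In 10 of them it lay after that start. These 6 stretches of 30 bases, placed on GRCh37 by exact match and printed on the strand of the gene with the E-box in capitals, show it in 4 genes that were clearly lower in the library labelled RUNX1 (WDR43, DDX21, NOP14 and GNL3) and in 2 that were among the least different (APEX1 and NOP10).
WDR43: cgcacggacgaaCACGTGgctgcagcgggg
DDX21: ggccgggtgtccCACGTGgtccccggcgac
NOP14: tccgcggcccggCACGTGtcttagggtagc
GNL3: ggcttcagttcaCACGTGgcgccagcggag
APEX1: aggtccgctaccCACGTGggggctcagcgt
NOP10: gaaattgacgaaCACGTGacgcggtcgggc

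The WDR43 stretch is chr2:29117524-29117553 on the plus strand and spans the annotated start of the gene, with the E-box beginning at base 4 of the gene. The DDX21 stretch is chr10:70716360-70716389 (plus strand), the NOP14 stretch chr4:2965101-2965130 (minus), the GNL3 stretch chr3:52720042-52720071 (plus), the APEX1 stretch chr14:20923350-20923379 (plus) and the NOP10 stretch chr15:34635331-34635360 (minus). The windows follow RefSeq starts, and the GENCODE gene positions used here differ from these for some genes. By GENCODE, DDX21 starts at base 70715891 and GNL3 at base 52715172, both upstream of their stretches. The APEX1 and NOP10 stretches lie inside the GENCODE genes, though their E-boxes lie before the RefSeq starts. Genes with and without an E-box had close ratios. The 15 genes with one had a median log2 ratio, library labelled RUNX1 over control, of -0.71, and the 10 with a window but no E-box, NCL, NPM1 and PA2G4 among them, had a median of -0.77. The letters TGTGGT on either strand, the core that RUNX proteins bind, occurred in the windows of 2 members, WDR12 and DDX21 (8%). They occurred in 15.6% of all 27305 genes with a window and in 12.5% of the 6090 of them that reached 10 CPM here. Counted by window, the share was 13.1%. Of the 2 members, DDX21 alone also has an E-box, and the motifs do not overlap there.

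The libraries held 5598 control cells and 4800 cells labelled RUNX1 after the study's filter of more than 2000 and fewer than 6000 genes and under 20% mitochondrial UMIs, with 75754137 and 75350615 human UMIs. Mitochondrial genes took 9.45% of control UMIs and 13.1% of UMIs in the library labelled RUNX1. Passing cells had a median of 12505.5 UMIs in the control, against 14805 in the library labelled RUNX1. They shared 10 barcodes between the libraries. RUNX1 itself was at 69.7 CPM in the control, against 30.4 CPM in the library labelled RUNX1, a log2 ratio of -1.20, so transcript levels did not show the induction that the label names. Whether a transcript of the vector ends where these 3′ tags are counted is not given in the sources used here. All 13 precursor B-cell markers that the annotation holds, of 14 listed, were at 10 CPM or more in each library, summing to 5469 and 6271 CPM. Of 10 T-cell markers, CD3D, CD3G, CD4, CD8A, CD5 and CD7 were at 0 in both libraries, and the list summed to 19.9 and 18.8 CPM. The highest were ZAP70 in the control (12.2 CPM), the only one to reach 10 CPM, and TRAC in the other library (9.32 CPM). The summed level of 10 myeloid markers was 3.85 and 4.70 CPM, and that of 8 erythroid markers 0.106 and 0.186 CPM.

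All 31 measured members were lower in the library labelled RUNX1, and 30 of 31 were when mitochondrial and ribosomal protein genes were left out of the totals. Their median log2 ratio was -0.75, against -0.13 over all 7980 genes. A log2 ratio of -0.5 or less was found in 25 members, as in 21.4% of all genes tested. At least 2-fold lower were 3 members, NCL, WDR43 and PA2G4, against 4.10% of all genes. Summed over the 31 nucleolar genes without MYC, the level was 8837 CPM (8816 to 8859) in the control, against 4777 CPM (4762 to 4793) in the library labelled RUNX1, a log2 ratio of -0.89 (-0.893 to -0.882). Among cells under 10% mitochondrial UMIs it was -0.94, and 8 members were then at least 2-fold lower. NPM1 alone gave 29.9% and 31.9% of these UMIs, and without it the log2 ratio was -0.93. NCL gave 15.4% of them in the control, against 9.28% in the other library. The difference would therefore be smaller without NCL, a sum that was not taken. All levels are counts of 3′ ends and are not scaled to gene length, so they are read between libraries and not between genes.

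**Figure D1:**
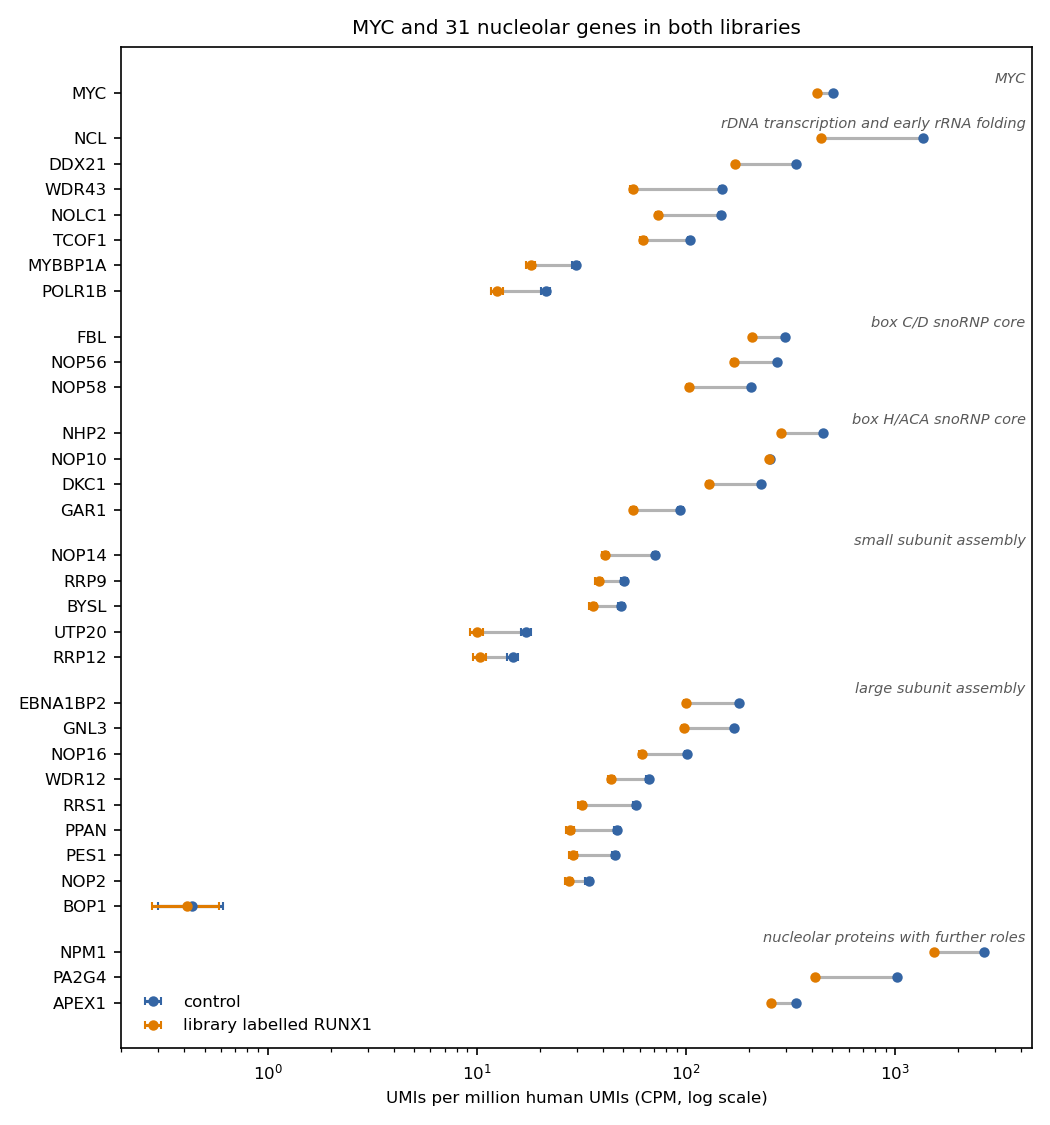
Level of each of the 32 genes in CPM on a log axis, grouped by role, with the control in blue and the library labelled RUNX1 in orange; bars are exact Poisson 95% intervals, hidden by the points where narrow. Every measured gene lies to the left in the library labelled RUNX1, most clearly NCL, WDR43 and PA2G4, while the points for NOP10 (252 and 250 CPM) nearly coincide and BOP1 sits below 1 CPM in both.

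MYC was at 501 CPM (496 to 506) in the control, against 420 CPM (416 to 425) in the library labelled RUNX1. The log2 ratio was -0.25 (-0.275 to -0.232). The size depends on the setting, from -0.04 when mitochondrial and ribosomal protein genes were left out of the totals to -0.45 when cells were weighted equally. At the first setting MYC lay within 0.05 of no difference.

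The largest differences by role lay in ribosomal DNA transcription and the first folding of the transcript. These 7 genes summed to 2143 CPM in the control, against 837 CPM in the library labelled RUNX1, a log2 ratio of -1.36. Each was at -0.5 or less. NCL gave most of these UMIs, and the median log2 ratio of the 7 genes was -0.96. NCL (nucleolin, chr2:232318242-232348352) binds nascent ribosomal RNA and nucleolar chromatin. It was at 1359 CPM (1351 to 1368) against 443 CPM (438 to 448), a log2 ratio of -1.62 (-1.634 to -1.599), the lowest of all members. WDR43 (chr2:29117533-29171085), a member of the early small-subunit processome that supports RNA polymerase I transcription, was at 148 CPM against 55.5 CPM, a log2 ratio of -1.41 (-1.465 to -1.362). NOLC1, a phosphoprotein that joins snoRNPs to polymerase I, was at 147 and 73.6 CPM. Its log2 ratio of -0.996 (-1.042 to -0.949) lay just short of 2-fold. DDX21, an RNA helicase of early ribosomal RNA processing, was at 334 and 172 CPM (log2 ratio -0.96). POLR1B, the second largest subunit of RNA polymerase I, was at 21.3 and 12.4 CPM (-0.78). TCOF1 (treacle), which holds polymerase I factors in the nucleolus, was at 104 and 62.2 CPM (-0.74). MYBBP1A, a nucleolar MYB-binding protein, was at 29.6 and 18.1 CPM (-0.71), the smallest difference of the 7.

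PA2G4, NPM1 and APEX1 make abundant nucleolar proteins that also act elsewhere. PA2G4 (chr12:56498321-56507694), a growth-linked protein found on ribosomes, was at 1017 CPM against 412 CPM, a log2 ratio of -1.30 (-1.323 to -1.285). NPM1 (nucleophosmin, chr5:170814120-170838814), a histone chaperone of the granular nucleolus, was at 2642 CPM (2631 to 2654) against 1522 CPM (1513 to 1531), a log2 ratio of -0.80. APEX1, a DNA repair endonuclease with nucleolar RNA-cleaving activity, differed less, at 335 and 255 CPM (-0.39). The annotation holds 45 NPM1 pseudogenes, 4 of PA2G4 and 2 each of NCL, NHP2 and PES1. The values of these genes are uncertain where reads match a copy as well.

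The snoRNP cores were lower by smaller amounts. The box C/D proteins, which carry 2′-O-methylation, summed to 773 and 479 CPM, a log2 ratio of -0.69. FBL (fibrillarin), the methyltransferase, was at 297 CPM (293 to 301) against 207 CPM (204 to 210), a log2 ratio of -0.52 (-0.550 to -0.491). Its scaffold partner NOP56 was at 272 and 168 CPM (-0.69), and NOP58, the other scaffold protein, was at 205 and 103 CPM, a log2 ratio of -0.99 (-1.025 to -0.946). Within one complex the scaffold NOP58 thus differed more than the enzyme FBL, with intervals that do not overlap.

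The box H/ACA proteins, which carry pseudouridylation and also belong to telomerase, summed to 1024 and 718 CPM, the smallest difference of any nucleolar role (-0.51). DKC1 (dyskerin), the pseudouridine synthase, was at 228 CPM against 128 CPM, a log2 ratio of -0.83 (-0.863 to -0.791). NHP2 was at 450 CPM (446 to 455) against 283 CPM (280 to 287), a log2 ratio of -0.67, and GAR1 at 93.9 and 56.0 CPM (-0.75). The remaining core protein, NOP10 (chr15:34631360-34635381), was at 252 CPM (248 to 255) and 250 CPM (247 to 254). Its log2 ratio was -0.01 (-0.038 to 0.020), the only measured member with an interval that includes 0, and the intervals of the other 3 core proteins lay far below it.

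Small-subunit assembly summed to 202 and 135 CPM (-0.58), with 3 of 5 genes at -0.5 or less. NOP14, a processome factor, had the lowest ratio of the 5, at 71.3 CPM (69.5 to 73.3) against 40.8 CPM (39.4 to 42.3) and a log2 ratio of -0.81 (-0.869 to -0.741). UTP20, a large scaffold of the same particle, was at 17.1 and 9.97 CPM (-0.78). RRP12, a late export factor, was at 14.8 and 10.3 CPM (-0.52), and BYSL (bystin), a late pre-40S factor, at 48.7 and 35.8 CPM (-0.44). RRP9, the protein that marks the U3 snoRNP, differed least, at 50.4 and 38.2 CPM, a log2 ratio of -0.40 (-0.472 to -0.332).

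Large-subunit assembly summed to 702 and 419 CPM (-0.74), and 7 of its 8 measured genes were at -0.5 or less. RRS1, which brings the 5S particle to the pre-60S subunit, was lowest by ratio, at 57.4 CPM (55.8 to 59.2) against 31.7 CPM (30.4 to 33.0), a log2 ratio of -0.86 (-0.931 to -0.786). EBNA1BP2, an early pre-60S factor, was at 180 CPM (177 to 183) against 100.0 CPM (97.7 to 102), a log2 ratio of -0.85. GNL3 (nucleostemin), a GTP-binding protein of proliferating cells, was at 170 and 98.0 CPM (-0.80). PPAN was at 46.9 and 27.8 CPM (-0.75), counted beside a readthrough transcript that overlaps it. NOP16 was at 101 and 61.4 CPM (-0.71). PES1 and WDR12 are partners of BOP1 in the complex that matures the large-subunit RNA. They were at 45.9 and 28.7 CPM (-0.68) and at 66.2 and 43.6 CPM (-0.60). BOP1 itself had only 33 control UMIs and 31 in the library labelled RUNX1, too few to show a difference (-0.08, -0.838 to 0.670). Whether UMIs of BOP1 were lost in counting was not tested, so its low count is uncertain as a level. NOP2, an RNA methyltransferase, differed least, at 34.2 CPM (32.9 to 35.5) against 27.4 CPM (26.2 to 28.6), a log2 ratio of -0.32 (-0.402 to -0.234).

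Cycling state differed strongly between the libraries. Phases were called from 42 S and 54 G2/M genes, none of them a member, on cells thinned to 8000 UMIs, which left out 413 cells of the control and 612 of the other library. Of the control, 328 cells were called G1, 6.33% (5.68 to 7.02), and of the library labelled RUNX1 2256 cells, 53.9% (52.3 to 55.4). Without thinning these shares were 6.45% and 59.4%. Within 0.05 of the score that separates G1 from the rest lay 4.36% of control cells and 9.74% of cells of the other library.

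Within cells of like phase the members still took lower shares of UMIs. Among cells called S or G2/M, the 31 nucleolar genes summed to 8830 CPM (8808 to 8852) in the control, against 5584 CPM (5561 to 5607) in the library labelled RUNX1, a log2 ratio of -0.66 (-0.668 to -0.654). Among 31 measured members, 30 were below 0 and 16 at -0.5 or less, against 13.0% of all genes tested in these cells, and NCL (-1.29) and WDR43 (-1.22) were at least 2-fold lower, as were 1.52% of all genes. The count of 16 became 6, and the median of -0.50 became -0.32, when mitochondrial and ribosomal protein genes were left out of the totals. PA2G4 came next at 1029 and 527 CPM (-0.96), and NOP10 was at 251 and 255 CPM (0.02, -0.011 to 0.060). MYC was at 492 CPM (487 to 497) in the control, against 474 CPM (467 to 480) in the library labelled RUNX1, a log2 ratio of -0.06 (-0.081 to -0.030) that turned to 0.13 when mitochondrial and ribosomal protein genes were left out of the totals. In cycling cells the nucleolar genes together thus took a lower share of UMIs. The MYC share differed by little, with a direction that depends on scaling. These are shares of unlike totals: cycling cells held a median of 13087 UMIs in the control, against 20052.5 in the library labelled RUNX1. Before thinning, their median of MYC UMIs was 6 and 8.5. A lower share therefore need not mean fewer UMIs per cell. The 31 nucleolar genes held 610999 UMIs over 4857 cycling control cells, against 224484 UMIs over 1932 cycling cells of the other library. Counted per cell, the libraries thus lie closer together than the shares do.

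Among cells called G1 the differences were larger. The nucleolar genes summed to 8846 CPM (8750 to 8943) in the control, against 4008 CPM (3985 to 4030) in the library labelled RUNX1, a log2 ratio of -1.14 (-1.160 to -1.125). All 31 measured members were below 0, 28 were at -0.5 or less, against 22.3% of all genes tested, and 15 were at least 2-fold lower, against 6.16%. With mitochondrial and ribosomal protein genes left out of the totals, 9 were at least 2-fold lower. NCL was at 1222 CPM against 324 CPM (-1.91), WDR43 at 162 against 48.5 CPM (-1.74), PA2G4 at 805 against 293 CPM (-1.46) and EBNA1BP2 at 189 against 73.5 CPM (-1.36). NPM1 was at 3095 CPM against 1330 CPM, a log2 ratio of -1.22 (-1.249 to -1.188). The smallest ratios belonged to NOP10 (-0.11), NOP2 (-0.26) and APEX1 (-0.34). MYC was at 591 CPM (566 to 617) against 386 CPM (379 to 393), a log2 ratio of -0.61 (-0.681 to -0.547). The G1 calls do not make the groups alike: cells called G1 held 28.9 UMIs of the 96 phase genes per 10000 UMIs in the control, against 17.7 in the other library.

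**Figure D2:**
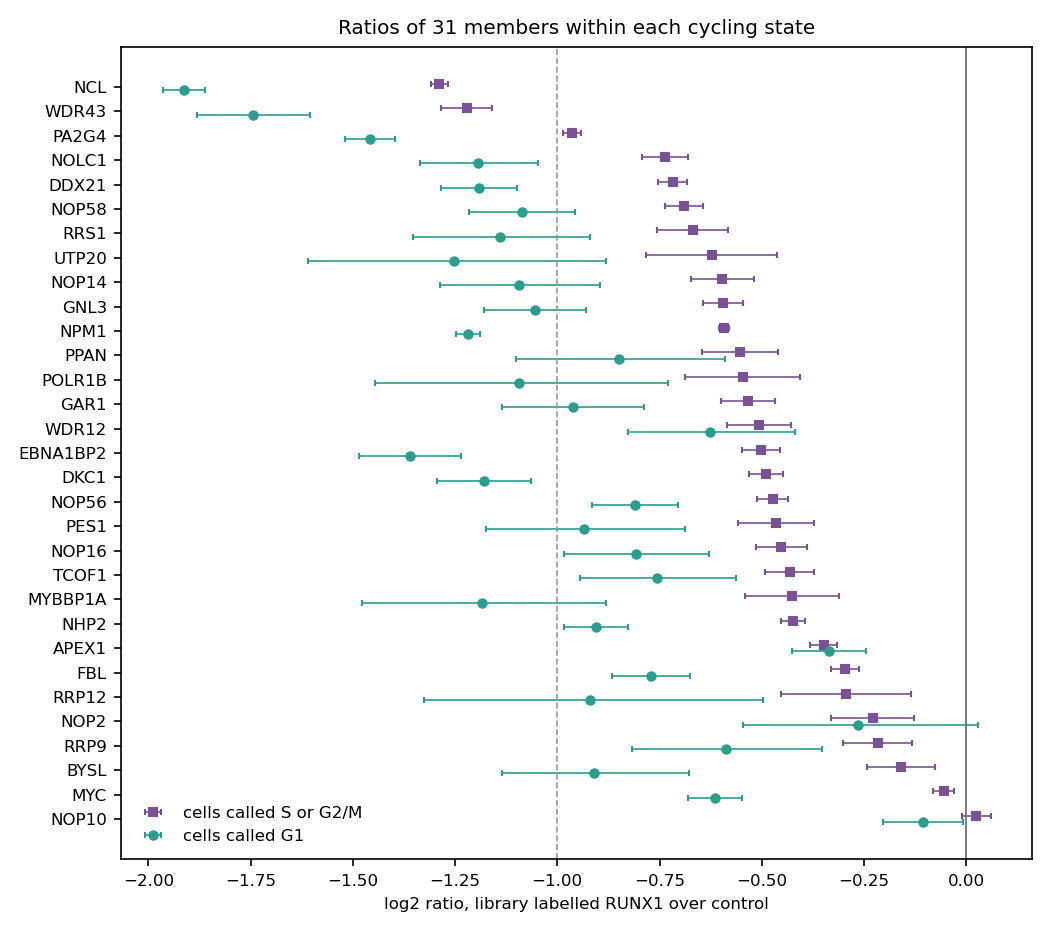
Log2 ratio, library labelled RUNX1 over control, of the 31 measured members within cells called G1 and within cells called S or G2/M; bars are exact conditional binomial 95% intervals. The G1 values lie further from 0 for most genes, with EBNA1BP2 at -1.36 in G1 and -0.50 in cycling cells, while APEX1 has nearly the same ratio in both (-0.34 and -0.35).

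The roles with the lowest and the highest summed ratios were the same in both states. Ribosomal DNA transcription and early folding had a summed log2 ratio of -1.62 in G1 and -1.06 in cycling cells, and the box H/ACA core -0.70 and -0.32. NCL weighs most in the former role, whose median over genes was -1.19 in G1 and -0.72 in cycling cells. Small-subunit assembly went from -0.92 in G1 to -0.36 in cycling cells. BYSL alone went from -0.91 (53.5 against 28.5 CPM) to -0.16 (48.5 against 43.4 CPM). Weighted to the phase make-up of the control, in which G1 holds 4.98% of UMIs, the 31 genes summed to 8831 and 5525 CPM, a log2 ratio of -0.68 (-0.683 to -0.670) against -0.89 unweighted. MYC so weighted had a log2 ratio of -0.09.

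The G1 cells of the libraries also differed from the cycling cells of their own library in unlike ways. In the control, the summed level of the 31 genes was nearly equal in G1 and cycling cells, with a log2 ratio, G1 over cycling, of 0.00 (-0.014 to 0.019), and 1 of 31 measured members, TCOF1 (-0.50), was at -0.5 or less, against 12.9% of all genes. In the library labelled RUNX1 the summed ratio was -0.48 (-0.488 to -0.468), and 10 members were at -0.5 or less, against 15.7% of all genes. NPM1 was higher in G1 than in cycling control cells (3095 and 2615 CPM), and lower in G1 than in cycling cells of the library labelled RUNX1 (1330 and 1735 CPM). The MYC level went the same way, at 591 in G1 and 492 CPM in cycling control cells and at 386 and 474 CPM in the other library.

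The same held without phase calls, when cells of both libraries were placed in 10 bins by their UMIs of the phase genes per 10000 UMIs. The control had 19 cells in the lowest bin, too few to be given. The summed level of the 31 genes peaked in the fourth bin in both libraries, at 10066 CPM (9984 to 10148) in the control, against 6218 CPM (6168 to 6269) in the library labelled RUNX1. That peak was below the lowest level of the control in any bin given, which was 7655 CPM in the highest bin. The log2 ratio between the libraries was -1.01 in the second bin, -0.92 in the third, and between -0.65 and -0.84 in the other 7. In the lowest bin the 1021 cells of the library labelled RUNX1 were at 3262 CPM (3230 to 3294). MYC behaved otherwise: its log2 ratio was -0.51 in the second bin and -0.55 in the third, between -0.08 and -0.41 in the fourth to the eighth, and 0.08 and 0.16 in the highest pair.

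**Figure D3:**
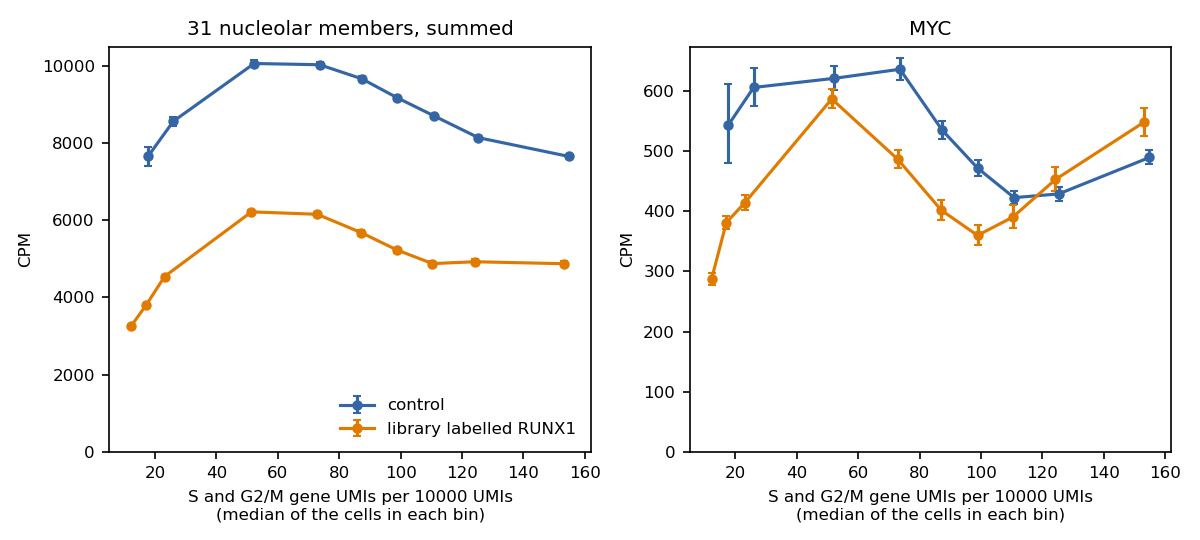
CPM summed over the 31 nucleolar genes and CPM of MYC in bins of cells ordered by UMIs of S and G2/M genes per 10000 UMIs, with exact Poisson 95% intervals; the control lacks the lowest bin, which held 19 of its cells. Both curves of the nucleolar genes peak at the fourth bin and stay apart in every bin, whereas the MYC curves cross towards the highest bins.

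The difference was spread over nearly the whole cell population. In cells thinned to 8000 UMIs, the control had a median of 71 UMIs of the 31 genes per cell, with 48 at the 10th and 93 at the 90th percentile. The library labelled RUNX1 had a median of 35, with 18 and 58. Of its cells, 97.8% lay below the control median and 74.7% below the control 10th percentile. By state, the medians were 70 in G1 and 71 in cycling control cells, and 28 in G1 and 44 in cycling cells of the library labelled RUNX1. The distributions therefore overlapped in their tails, and the cycling cells of the library labelled RUNX1 lay between its own G1 cells and the control.

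**Figure D4:**
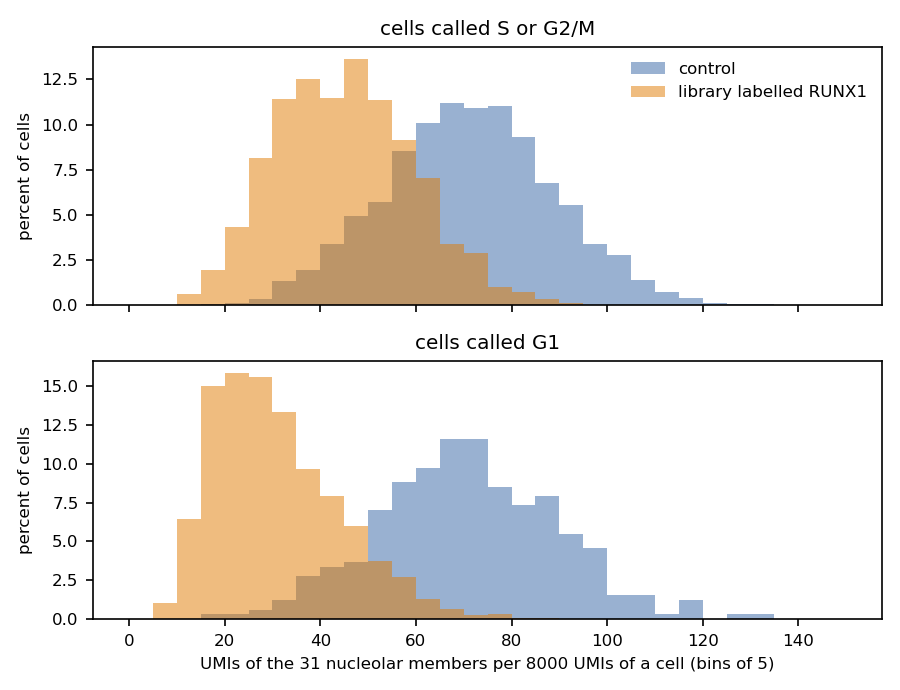
Distribution of UMIs per cell of the 31 nucleolar genes summed, in cells thinned to 8000 UMIs, as percent of cells, by library and state. The library labelled RUNX1 lies lower in both states. Its medians are 44 against 71 in cycling cells and 28 against 70 in G1 cells.

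MYC itself was uneven between cells. At 8000 UMIs, the G1 cells of the library labelled RUNX1 had a median of 1 MYC UMI and a 90th percentile of 8, and 849 of 2256 cells, 37.6% (35.6 to 39.7), had none. A Poisson spread around their mean of 2.85 would leave 5.81% without one. The other groups of cells also had more zeros than a Poisson spread around their own means would give, which is 2.29% in cycling cells of that library, 0.821% in control G1 cells and 1.84% in cycling control cells. The cycling cells of that library had a median of 3, a 90th percentile of 8 and 17.7% without a MYC UMI. Control cells had medians of 4 in G1 and 3 in S or G2/M, with 7.32% and 12.3% at 0. Before thinning, the shares without a MYC UMI were 32.05% in G1 and 10.2% in cycling cells of the library labelled RUNX1, and 4.57% and 7.45% in the control. The upper ends were thus alike in all 4 groups of cells, and the G1 cells of the library labelled RUNX1 differed at the low end. No other human cell type was in the libraries to give the level of free MYC RNA.

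Cells with 3 or more MYC UMIs had higher levels of the nucleolar genes than cells with 0, in each library and state. Among G1 cells of the library labelled RUNX1, the summed level of the 31 genes was 2985 CPM in the 849 cells with 0 MYC UMIs, 3580 CPM with 1, 4125 CPM with 2 and 4561 CPM in the 907 cells with 3 or more. The log2 ratio of the last to the first was 0.61 (0.587 to 0.637). It was 0.34 in cycling cells of the same library, from 4673 to 5894 CPM, and 0.20 in cycling control cells, from 7903 to 9107 CPM. In control G1 cells it was 0.22, from 7651 CPM in only 24 cells with 0 MYC UMIs to 8919 CPM. Even the cells with 3 or more MYC UMIs of the library labelled RUNX1 were thus below the cells with 0 MYC UMIs of the control. These values describe cells of single libraries and carry no test.

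**Figure D5:**
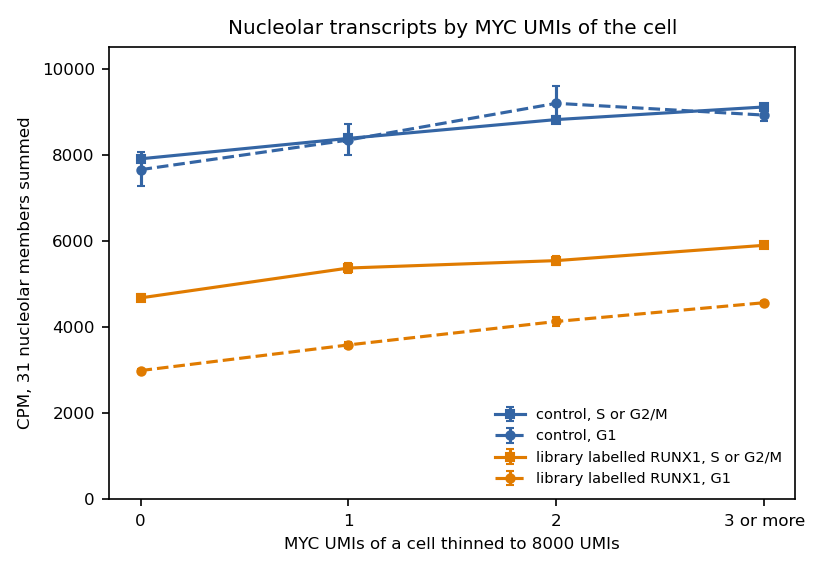
CPM summed over the 31 nucleolar genes in cells with 0, 1, 2 and 3 or more MYC UMIs at 8000 UMIs per cell, by library and state, with exact Poisson 95% intervals. The lines of the library labelled RUNX1 run from 2985 to 4561 CPM in G1 and from 4673 to 5894 CPM in cycling cells, below those of the control throughout.

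In the G1 cells of the library labelled RUNX1, 24 of the 30 measured nucleolar genes were higher by a log2 ratio of 0.5 or more in cells with 3 or more MYC UMIs than in cells with 0, against 7.53% of all genes tested. The largest ratios belonged to WDR43 and a pair of large-subunit factors. NOP16 was at 63.8 against 24.3 CPM (1.39), WDR43 at 64.9 against 29.7 CPM (1.13) and PPAN at 29.1 against 13.5 CPM (1.10). APEX1 (256 and 235 CPM, 0.13) and NOP10 (254 and 219 CPM, 0.21) again differed least. In cycling cells of that library 14 of 30 were higher by 0.5 or more, against 5.45% of all genes, and in cycling control cells 5 of 30, against 2.49%. The control G1 comparison, with its 24 cells, had 8 of 30 against 22.9% of all genes. In the G1 cells of the library labelled RUNX1, phase-gene UMIs per 10000 UMIs were 16.1 with 0 MYC UMIs and 18.6 with 3 or more, and mitochondrial genes took 13.5% and 14.0% of UMIs. In cycling cells the phase-gene UMIs went the other way, from 94.7 to 85.8 in the library labelled RUNX1 and from 116 to 105 in the control, and the part of cycle position in these comparisons was not tested.

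The rest of the ribosome assembly pathway was lower in part. Of 43 measured other small-subunit assembly genes, 21 had a log2 ratio of -0.5 or less over all cells, against 21.4% of all genes, and none 0.5 or more, against 13.8%, with a median of -0.48. DDX10 (53.7 and 25.3 CPM, -1.09) and DHX37 (18.9 and 9.32 CPM, -1.02), both RNA helicases, were lowest, and PWP2 was closest to 0 (-0.13). Of 47 other large-subunit assembly genes, 27 were at -0.5 or less and 1 at 0.5 or more, with a median of -0.56. MRTO4 (150 and 77.8 CPM, -0.94) and RRP15 (55.6 and 29.1 CPM, -0.93) were lowest, while GLTSCR2, now named NOP53, was higher at 377 and 571 CPM (0.60). The members had a lower median (-0.75) than either of these longer lists, but members and lists were chosen with earlier results of these data known.

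RNA polymerase I itself differed less, and counts in this and the snoRNP list lay near the share of all genes at -0.5 or less (21.4%). Of 14 other subunits and factors, CD3EAP, a polymerase I subunit (-0.70), and UBTF, which binds the ribosomal DNA promoter (-0.63), were the 2 at -0.5 or less, none was at 0.5 or more, and the median was -0.14, close to that of all genes. POLR1B (-0.78), the subunit among the members, had a lower ratio than each of these 14. Other snoRNP genes had 3 of 11 at -0.5 or less and a median of -0.44, with ZNHIT6, a box C/D assembly factor, lowest (-0.76), and the RNA exosome, which trims the precursor, 6 of 14 and a median of -0.41, with EXOSC2 lowest (-0.91). Host genes that carry snoRNAs in their introns went both ways. SNHG16 (133 and 70.6 CPM, -0.91) and SNHG8 (352 and 207 CPM, -0.76) were lower, and GAS5 (0.67) and ZFAS1 (384 and 694 CPM, 0.85) were higher.

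Of 8 measured partners and antagonists of MYC none was at -0.5 or less, against 21.4% of all genes. MAX was at 54.4 and 53.3 CPM (-0.03, -0.092 to 0.034). MXD4, a MAX-binding repressor, was at 26.9 and 48.4 CPM over all cells (0.85), but at a log2 ratio of 0.01 within G1 cells and -0.37 within cycling cells, so its higher level over all cells was found within neither state. Of 19 measured MYC targets outside the nucleolus, 14 were at -0.5 or less, against 21.4% of all genes. Their median was -0.75, close to that of the members. LDHA, of lactate production, was lowest (964 and 242 CPM, -1.997), and EIF4A1, a translation helicase, highest (36.6 and 49.6 CPM, 0.44).

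Transcripts of ribosomal proteins, the building blocks of the ribosome, were not lower as a group. The 78 measured cytosolic ribosomal protein genes had a median log2 ratio of 0.25, above 0 under each scaling, with 14 at 0.5 or more and 7 at -0.5 or less, against 13.8% and 21.4% of all genes, and 20 of the 78 were below 0. In G1 cells the median was 0.16, with 6 at 0.5 or more and 9 at -0.5 or less, against 19.7% and 22.3% of all genes. There were 31.3 ribosomal protein UMIs for each UMI of the 31 nucleolar genes in the control, against 68.4 in the library labelled RUNX1. This ratio was 34.9 against 86.1 in G1 cells and 31.0 against 56.9 in cycling cells. Both sets are taken from the same cells, so the ratio does not depend on how the libraries were scaled.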

How the data were processed

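Per the labels and the study's methods, the authors ran Cell Ranger 3.0.2 against hg19 joined with mm10 and deposited raw UMI counts of the human cells; 10 ChIP-seq samples were not analysed here. The cell filter of the study was applied, which left 5598 of 6073 and 4800 of 5491 barcodes. No doublets were removed. UMIs of passing cells were added up per library and scaled to all human UMIs, without a pseudocount, and a gene counted as measured from 10 CPM in either library. CPM has exact Poisson intervals, shares have Clopper-Pearson intervals and ratios have exact conditional binomial intervals, all at 95%. UMI counting removes PCR copies, so these intervals cover the sampling of molecules. They cover neither variation between cells nor variation between cultures.

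Phase scores came from scanpy 1.11.5, with the libraries pooled. The members, the lists and the settings were chosen with earlier results of these data known, the phase and marker lists included. All members were named, with full values for the highest, lowest and nearest to 0 of each role, and of each other list at most the 2 lowest and 2 highest ratios. The ribosomal protein list, the members by MYC UMIs and the TGTGGT search were added after values were seen. The annotation lacked 5 listed symbols. Protein sequences were not used here. Positions are GENCODE v44lift37 on GRCh37, matched for 55538 of 57905 genes. Ratios were tested on simulated counts. Alternatives changed scaling, cell filter, cell weighting, thinning, gene floor and phase calls. The tools were edgeR 4.0.16 (TMM factors only) under R 4.3.3, and Python 3.11.15 with pandas 2.3.3, scipy 1.17.1, numpy 2.4.6 and matplotlib 3.10.9.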

Additional observations from a re-analysis of the deposited data

How the results depend on the processing

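The members stayed lower as a group under every alternative run. Against -0.89, the summed log2 ratio over all cells was -1.02 with TMM factors, -1.01 with the median of gene ratios, -0.67 with totals without mitochondrial and ribosomal protein genes, -0.90 with no cell filter, -0.94 under 10% mitochondrial UMIs, -0.91 without the 5% of cells with most UMIs, -1.02 with cells weighted equally and -0.94 with cells thinned. The median over members, -0.75, became -0.87 with TMM, -0.87 with the median of ratios, -0.53 without mitochondrial and ribosomal protein genes and -0.88 with equal weights. The number at least 2-fold lower, 3, became 6 with TMM, 6 with the median of ratios, 8 under 10% mitochondrial UMIs, 5 without the cells with most UMIs and 8 with equal weights. The median of all genes moved from -0.13 to -0.26 with TMM and to 0.14 without mitochondrial and ribosomal protein genes, and relative to it the members' median ran only from -0.61 to -0.80. Among all genes at least 2-fold different, 55.8% were higher, 39.3% with TMM and 84.0% without mitochondrial and ribosomal protein genes.

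In G1 cells the summed ratio, -1.14, became -1.19 with unthinned calls, -0.96 without mitochondrial and ribosomal protein genes (median -0.78, with 9 genes in place of 15 at least 2-fold lower) and -1.10 with TMM. In cycling cells, -0.66 became -0.74 in the cells highest in phase-gene UMIs (median -0.60), -0.48 without mitochondrial and ribosomal protein genes (median -0.32, with 6 genes in place of 16 at -0.5 or less) and -0.70 with TMM. Weighted to the phases of the library labelled RUNX1 the ratio was -0.85. MYC over all cells ran from -0.04 without mitochondrial and ribosomal protein genes to -0.45 with equal weights, and in cycling cells it was 0.13 with the former scaling, so its direction there depends on scaling. BOP1 in G1, with 1 control UMI and a ratio of 0.60, was -0.50 with unthinned calls and -0.87 in the cells lowest in phase-gene UMIs. The cause was not tested beyond the construction of each alternative. No paired analysis was possible because each group has 1 library. The control G1 group held only 328 cells, the count of BOP1 is too low for a ratio, and 1 library per group limits every ratio.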
